A study of Mus musculus with 3 samples.

Results

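The 1106 olfactory receptor genes examined here were the autosomal protein-coding genes of the mouse GENCODE M1 annotation whose symbol begins with Olfr, out of 21418 autosomal protein-coding genes. They were chosen by name and annotation alone, with no measured value in the rule. Genomic DNA (gDNA) of E14 mouse embryonic stem cells (mESCs), an established line grown on gelatin with serum, LIF and the inhibitors PD0325901 and CHIR99021, was sequenced by 3 borane-based methods, with 1 library per method and no other group. TAPSβ converts 5-methylcytosine (5mC) after 5-hydroxymethylcytosine (5hmC) has been blocked with glucose, CAPS converts 5hmC after chemical oxidation, and pyridine borane sequencing (PS) converts 5-formylcytosine and 5-carboxylcytosine. In every method a converted base is read as T, so the level of a region was the percent of base calls at its CpG cytosines that read as modified. The 3 libraries came from 1 cell line, so the values describe these libraries, and every interval given is a 95% interval for counting error only.

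Olfactory receptors are G protein-coupled receptors that bind odorants on the cilia of olfactory sensory neurons, and each neuron expresses a single allele of a single receptor gene. Their coding sequence usually lies in 1 exon, and the genes stand in clusters that arose by local duplication. Genes of the class I receptors, which bind hydrophilic odorants, lie around the β-globin genes on chromosome 7, while class II genes are spread over many chromosomes. In mESCs the receptors are silent in textbook accounts, and 5mC is the mark of most CpGs outside CpG islands, while 5hmC, made from 5mC by TET enzymes, is best known from active gene bodies and enhancers.

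The 1106 genes lay on 17 autosomes, and 1035 of them had a single coding exon. Joining neighbours less than 50 kb apart gave 116 clusters of at least 2 genes and 43 single genes. The 36 clusters of 10 or more genes held 694 genes, and the largest, at chr2:85419372-87093098 (NCBIM37, the build also named mm9), held 85 genes from Olfr996 to Olfr1115. The TAPSβ, CAPS and PS libraries had 499928217, 368690187 and 375116986 autosomal CpG base calls, with a median of 13, 9 and 9 reads per listed cytosine and autosomal levels of 57.4%, 3.15% and 0.240%. Within 500 bp of their starts, 6 of 7 stem cell markers had a TAPSβ level under 20%, with Esrrb at 41.1%, and so had 2 of 4 markers of differentiated cells. The share of all genes under 20% in that window is not given here.

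The coding exons of the family were poor in CpG, at 0.884 CpG per 100 bp against 3.01 for the 20312 other genes, and 1 CpG recurred at the same place in most members. It lies in the arginine codon of the aspartate-arginine-tyrosine motif, the conserved signature at the inner end of the third membrane helix that takes part in coupling to the G protein. The 9-base pattern GANCGNTAN (N is any base), searched in frame on the coding strand, was found in 727 of 1106 members (65.7%), with a median place at codon 121. In codons 115 to 137, where nearly all of these matches lay, the pattern occurred in 64.4% of the members, in 0.436% of 19051 other genes and in 1.61% of 2178 other genes with 1 coding exon. The stretches of 63 bases around it are shown for receptors with known ligands or much-used alleles, written 5′ to 3′ on the coding strand with every CpG in capitals. The pattern's own CpG is at base 31 of each line.
Olfr2 (chr7:114144962-114145024, minus strand): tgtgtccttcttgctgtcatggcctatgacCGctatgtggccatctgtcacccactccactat
Olfr15 (chr16:3839308-3839370, plus strand): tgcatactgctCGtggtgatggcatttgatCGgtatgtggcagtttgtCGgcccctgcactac
Olfr16 (chr1:174887261-174887323, plus strand): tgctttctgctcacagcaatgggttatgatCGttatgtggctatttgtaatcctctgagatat
Olfr17 (chr7:114241317-114241379, plus strand): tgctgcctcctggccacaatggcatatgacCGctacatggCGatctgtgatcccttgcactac
Olfr78 (chr7:109891123-109891185, minus strand): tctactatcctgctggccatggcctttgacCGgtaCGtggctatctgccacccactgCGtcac
Olfr151 (chr9:37538171-37538233, minus strand): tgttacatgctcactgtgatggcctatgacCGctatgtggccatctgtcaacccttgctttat
Olfr544 (chr7:109633225-109633287, minus strand): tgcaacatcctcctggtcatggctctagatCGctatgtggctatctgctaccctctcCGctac
Olfr690 (chr7:112478303-112478365, minus strand): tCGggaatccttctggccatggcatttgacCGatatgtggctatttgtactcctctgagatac
Olfr1440 (chr19:12469091-12469153, plus strand): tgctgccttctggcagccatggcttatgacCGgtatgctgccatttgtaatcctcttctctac
Olfr1507 (chr14:53110233-53110295, minus strand): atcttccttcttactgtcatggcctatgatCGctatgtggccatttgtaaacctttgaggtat
Olfr1508 (chr14:53083278-53083340, minus strand): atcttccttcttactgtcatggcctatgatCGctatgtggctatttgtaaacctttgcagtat

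In Olfr2, a receptor for octanal, the CpG at base 31 read as modified in 27 of 35 TAPSβ calls (77.1%), in 1 of 17 CAPS calls and in 0 of 18 PS calls. The same CpG was at 88.6% TAPSβ in Olfr17, 78.6% in Olfr78, 58.8% in Olfr151 (a receptor for acetophenone), 74.1% in Olfr1507 and 75.8% in Olfr1508. In Olfr15 it was at 23.1%, and the CpGs at bases 12 and 49 of that line read 7 of 29 and 2 of 25 calls as modified. Over all members with the pattern, its CpG had a TAPSβ level of 75.7% (75.1 to 76.3), against 68.0% (67.8 to 68.3) for the other coding CpGs of the same genes. Among 677 genes with enough reads for both values (10 for the pattern's CpG and 50 for the others), the pattern's CpG was the higher in 492 and the lower in 184, and the median difference was 7.37 points. Matched on the number of CpGs within 100 bp, the difference was 7.33 points (6.68 to 7.99), and matched also on the bases on either side of the CpG it was 4.58 points (3.84 to 5.32). In CAPS the difference was within counting error, with 2.05% at the pattern's CpG and 1.93% at CpGs matched in both ways (ratio 1.06, 0.921 to 1.21). Of 717 such CpGs with 10 or more TAPSβ reads, 297 were at 80% or more and 5 were under 20%.

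Olfr coding exons carried more 5mC and less 5hmC than other genes of equal CpG density. Their TAPSβ level was 68.4% (68.2 to 68.6, 238764 base calls), against 63.7% for other genes weighted to the same CpG density, a difference of 4.69 points (4.49 to 4.90). Their CAPS level was 2.17% (2.10 to 2.24, 180941 base calls) against 2.94%, a ratio of 0.738 (0.714 to 0.763). Without weighting by density, the other genes had a TAPSβ level of 42.4%. The PS level was 0.202% against 0.456%, and part of this gap lay in cytosines that read 20% or more in PS at 5 or more reads, which made up 0.103% of Olfr coding cytosines and 0.339% of control cytosines of equal density. With those cytosines left out the PS levels were 0.148% and 0.212%, and matched on the number of CpGs near each cytosine the PS ratio was 0.931 (0.839 to 1.03). Of 721 members with enough PS reads, 199 were above the control median of their stratum, 68 below it and 454 equal to it. In strata where the median other gene had no modified PS call, no member can lie below it. This split is therefore not read as a direction. Reads per reference CpG cytosine were close to the controls in all 3 libraries, at 13.0, 9.82 and 9.82 in TAPSβ, CAPS and PS against 12.7, 9.42 and 9.46, and the ratios were 1.02, 1.04 and 1.04. Cytosines not listed count here as having no reads. In TAPSβ 98.9% of the Olfr cytosines were listed and 91.5% of the control cytosines of equal density.

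Most members had a high 5mC level. Of 944 members with 100 or more TAPSβ base calls, 839 (88.9%) were at 60% or more, against a share of 41.0% among all autosomal protein-coding genes with that many calls and 74.8% among other genes weighted to the members' density strata. The distribution had a lower quartile of 65.7%, a median of 71.0% and an upper quartile of 75.7%, against 59.9%, 67.3% and 73.3% in other genes weighted in that way. Compared each with the median of other genes in its own density stratum, 647 members were higher and 297 lower. The counting intervals of 295 members lay above the pooled level of the family and those of 134 below it. Members thus differed by more than the counting error of independent calls. Calls at several CpGs of the same molecule are not independent, and these intervals do not allow for that. The same counts for other genes are not given here, so the spread is not read as a trait of the family. At single cytosines with 10 or more TAPSβ reads, 3.91% of those in Olfr coding exons were under 20% and 34.7% were at 80% or more, against 8.12% and 30.6% in other genes weighted to the same density strata. Along the coding exon of the 1035 single-exon members, the level over 5 equal parts was lowest in the first, at 66.5% (66.1 to 67.0). It was highest in the second, at 70.6% (70.2 to 71.0).

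**Figure D1:**
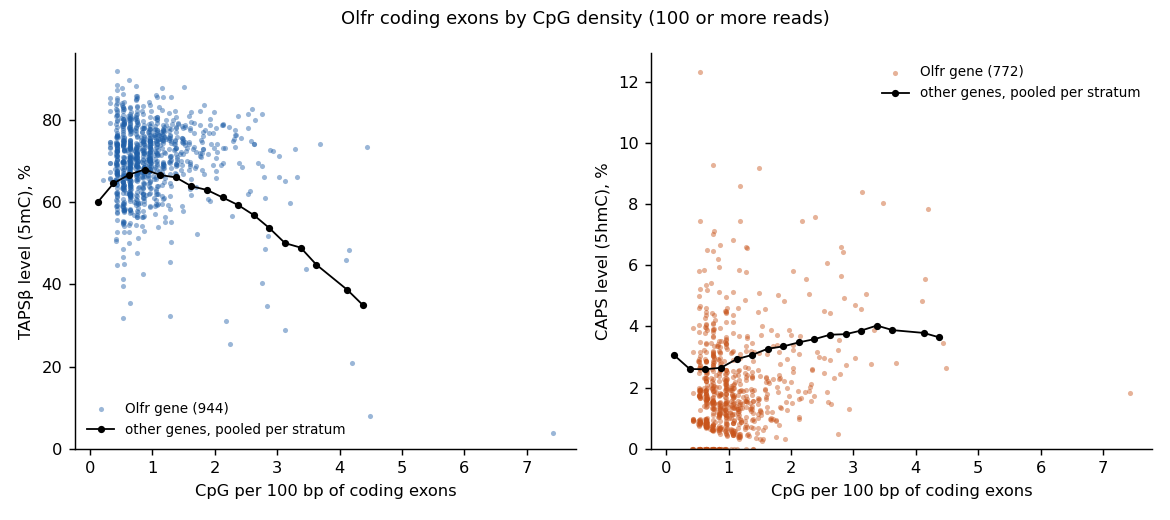
Each point is 1 Olfr gene with 100 or more base calls, its coding-exon CpG density on the x axis (CpG per 100 bp) and its TAPSβ level (left, 944 genes) or CAPS level (right, 772 genes) in percent on the y axis; the black line joins the pooled levels of other genes in strata of 0.25 CpG per 100 bp. Most Olfr genes lie above the line in TAPSβ and below it in CAPS, and the points at the lower right of the left panel are Olfr94 at 3.74% and Olfr95 at 8.09%. The line does not reach the density of Olfr94.

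The highest TAPSβ level was that of Olfr901 on chromosome 9, with 101 of 110 calls modified (91.8%, 85.0 to 96.2), followed by Olfr275 (89.7%), Olfr1311 (88.6%), Olfr486 (88.3%) and Olfr1388 (88.1%). These 5 genes had 8 to 28 CpG cytosines each, and their intervals overlapped. The lowest level was that of Olfr94 at chr17:37333653-37334956, with 112 of 2997 calls (3.74%, 3.09 to 4.48), and next came its neighbour Olfr95 with 101 of 1249 calls (8.09%). Olfr279 (20.8%), Olfr15 (25.6%) and Olfr718-ps1 (29.0%), a gene named as a pseudogene but annotated as protein-coding, made up the 5 lowest.

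Of these 5 genes, 4 had more than 2.5 CpG per 100 bp, and Olfr15 did not. Olfr94 had 172 CpG cytosines, or 7.43 CpG per 100 bp, the highest density of the family, and Olfr95, Olfr279, Olfr718-ps1 and Olfr15 had 4.49, 4.19, 3.13 and 2.24. The densest 180 bases of Olfr94 and of Olfr279 are set beside those of Olfr1507, the olfactory receptor well known from work on its distal enhancer, with 1.28 CpG per 100 bp where the median member had 0.742. CpGs are in capitals, on the coding strand.
Olfr94 (chr17:37334047-37334226, minus strand): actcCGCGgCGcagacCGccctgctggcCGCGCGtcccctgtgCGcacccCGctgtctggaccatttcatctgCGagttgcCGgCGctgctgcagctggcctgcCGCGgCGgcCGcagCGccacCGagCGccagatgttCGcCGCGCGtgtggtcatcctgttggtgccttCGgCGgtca
Olfr279 (chr15:98328500-98328679, plus strand): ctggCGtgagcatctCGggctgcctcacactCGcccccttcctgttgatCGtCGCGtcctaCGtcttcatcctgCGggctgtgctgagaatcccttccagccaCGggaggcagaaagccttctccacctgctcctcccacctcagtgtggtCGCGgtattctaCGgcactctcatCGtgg
Olfr1507 (chr14:53109779-53109958, minus strand): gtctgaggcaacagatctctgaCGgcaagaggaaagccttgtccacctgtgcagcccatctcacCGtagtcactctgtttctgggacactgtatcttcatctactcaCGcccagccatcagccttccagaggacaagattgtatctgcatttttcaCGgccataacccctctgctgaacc

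The stretch of Olfr94 held 25 CpGs, and 5 of its 1058 TAPSβ calls read as modified (0.473%). In the stretch of Olfr279, with 13 CpGs, the level was 11.5%. In that of Olfr1507, with 4 CpGs, it was 72.1%. CAPS read 3 of 599 calls as modified in the stretch of Olfr94, 9 of 134 in that of Olfr279 and 1 of 101 in that of Olfr1507. No other annotated gene overlaps Olfr94, Olfr95, Olfr279, Olfr15 or Olfr718-ps1. The 1 kb upstream of Olfr94 was at 57.0% in TAPSβ (147 of 258 calls) and that of Olfr95 at 60.8% (59 of 97), both far above their coding exons.

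Members under 2.5 CpG per 100 bp were at 70.5% pooled, and between 66.0% and 73.9% in strata of 0.25 CpG per 100 bp, while the 35 members at or above it were at 50.2% pooled (49.6 to 50.8). Among those 35 the level of single genes ran from 3.74% to 82.8% with a median of 66.2%, and 10 were under 50%. Without Olfr94 and Olfr95 the remaining 33 were at 59.8% (59.1 to 60.5), against 50.4% for other genes of equal density. In CAPS the dense group was at 3.75% (3.49 to 4.03) and the other 1071 members were at 1.98% (1.92 to 2.05). The ratio to other genes of equal density was 1.04 (0.970 to 1.12) in the dense group, which did not have the lower CAPS level, and 0.692 (0.667 to 0.718) in the rest.

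Receptors with known ligands or much-used alleles spanned most of this range. Olfr1440, a receptor for muscone, had 119 of 147 TAPSβ calls modified (81.0%), Olfr2 265 of 336 (78.9%), and Olfr73, a receptor for eugenol, 134 of 176 (76.1%). Olfr1019 was at 75.7%, Olfr78, which responds to short-chain fatty acids and is also expressed outside the nose, at 73.5%, and Olfr17 at 72.4%. Olfr151 (71.4%), Olfr1507 (71.1%), Olfr690 (69.3%), Olfr1508 (66.8%), Olfr16 (64.1%) and Olfr544 (62.8%) followed, and Olfr15 was far below them at 25.6% (22.1 to 29.3). Neighbours in this order from Olfr1440 to Olfr544 had overlapping intervals. In CAPS, Olfr544, a receptor for azelaic acid, was at 6.07% (28 of 461 calls, 4.07 to 8.66), Olfr690 at 5.85% and Olfr15 at 5.54%. By contrast Olfr17 was at 0.637% (1 of 157) and Olfr78 at 0.985% (4 of 406). Olfr16 and Olfr73 had 0 modified CAPS calls, of 109 and 111, and their intervals reached up to 3.33% and 3.27%.

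Around the start codon Olfr genes had no dip in 5mC. In windows of 500 bp from 5 kb before to 5 kb after the start codon, the Olfr TAPSβ level stayed between 62.7% and 69.3%. Other genes weighted to the same coding-exon density fell to 32.4% in the last 500 bp before the start codon, where Olfr genes were at 65.3% (64.9 to 65.7). The CpG density of that window was not equal, at 0.373 per 100 bp for Olfr genes and 1.18 for the other genes. At equal density of the 500 bp before the annotated start, the other genes were at 55.0% and Olfr genes at 64.8%. The density of Olfr genes rose to 0.877 in the first 500 bp of the coding exon. The CAPS level of Olfr genes lay below that of other genes in each of the 20 windows.

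**Figure D2:**
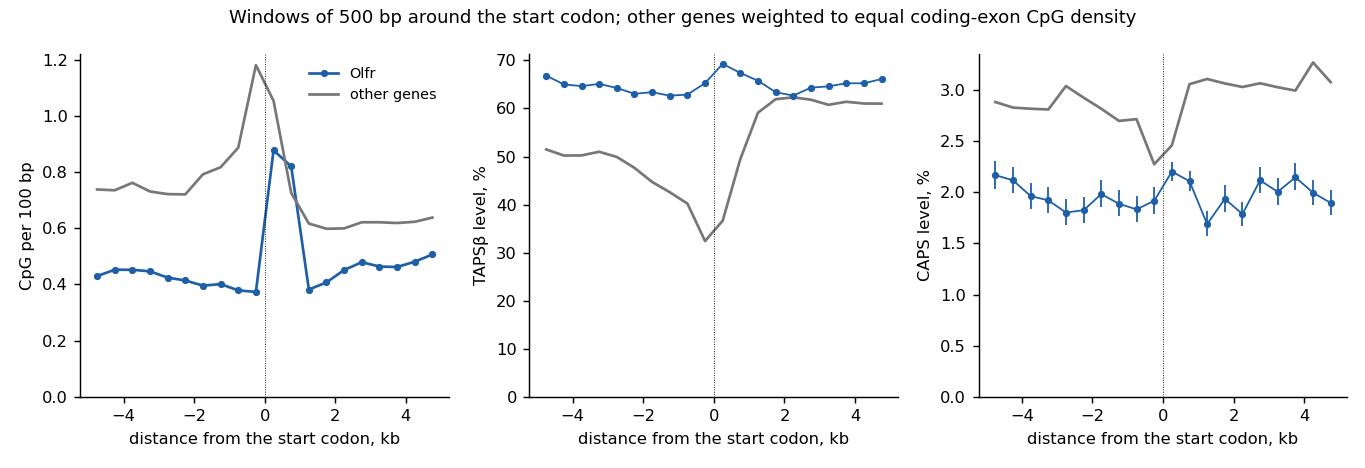
CpG density (left), TAPSβ level (middle) and CAPS level (right) in windows of 500 bp from 5 kb before to 5 kb after the start codon, for the 1106 Olfr genes (blue, 95% intervals) and for other genes weighted to the same coding-exon CpG density (grey). Olfr TAPSβ stays between 62.7% and 69.3% where other genes fall to 32.4%, in a window whose CpG density is 1.18 for them and 0.373 for Olfr genes, and CpG density of Olfr genes rises only inside the coding exon.

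In the 1 kb before the annotated start, Olfr genes were at 63.9% in TAPSβ, 5.56 points (5.25 to 5.88) above controls of equal density. CAPS there was 1.87% against 3.23%, a ratio of 0.578 (0.548 to 0.609). PS was 0.184% against 0.542%, but cytosines at 20% or more in PS made up 0.0482% of the Olfr and 0.399% of the control cytosines there, so no lower PS level is read from these values. One by one the members split about evenly in TAPSβ, with 434 of 850 above the control median of their stratum and 416 below it. For CAPS, 194 of 687 Olfr genes were above that median and 488 below. In the nearest 500 bp the TAPSβ difference was 9.81 points. The annotated start was the start codon itself in 634 genes, so their upstream kilobase need not hold the promoter.

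A few members had little 5mC upstream while their coding exon kept it. Olfr466 had 16 of 85 upstream TAPSβ calls modified (18.8%, 11.2 to 28.8) and a coding exon at 60.5%. Olfr651 was at 20.6% upstream and 85.5% in the coding exon, Olfr317 at 21.4% and 51.8%, Olfr67 at 21.8% (22 of 101 calls) upstream with 210 of 280 calls in the coding exon, and Olfr630 at 22.4% and 73.0%. Olfr67, Olfr630 and Olfr651 all belong to the class I region of chromosome 7, taken here as members within 2 Mb of the β-globin genes. The 300 bases before the start of Olfr67, whose cluster had the lowest upstream TAPSβ level of the 36 large clusters, are shown with CpGs in capitals.
Olfr67 (chr7:110940345-110940644, minus strand): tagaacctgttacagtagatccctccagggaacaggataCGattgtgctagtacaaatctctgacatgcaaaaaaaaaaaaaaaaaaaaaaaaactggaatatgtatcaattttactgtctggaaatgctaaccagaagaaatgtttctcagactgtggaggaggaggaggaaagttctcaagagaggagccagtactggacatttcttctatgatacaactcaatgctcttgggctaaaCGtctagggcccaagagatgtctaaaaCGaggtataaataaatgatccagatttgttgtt

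The stretch held 3 CpGs, and they read 0 of 18, 10 of 25 and 12 of 33 TAPSβ calls as modified, from the first to the last. The 129 members of the class I region were at 59.3% upstream (58.4 to 60.1), against 64.6% (64.3 to 64.9) for the other 977 members. These upstream levels were not matched on CpG density. The coding exons of the class I region went the other way, with 71.1% against 67.9% in TAPSβ, where the other members include Olfr94 and Olfr95. Coding-exon CpG density was 1.26 per 100 bp in the class I region and 0.834 in the other members. Relative to other genes of equal density, the TAPSβ ratios were 1.10 and 1.07. In CAPS the class I coding exons were at 1.79% (1.64 to 1.94) against 2.25% (2.17 to 2.32). Relative to other genes of equal density the CAPS ratio of the class I region was 0.574 (0.528 to 0.625) and that of the other members 0.773 (0.746 to 0.801).

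Fewer members than other genes reached a given 5hmC level. Of 772 members with 100 or more CAPS calls, 159 (20.6%) were at 3% or more, against 53.7% of all autosomal protein-coding genes and 33.3% of other genes weighted to the members' density strata. The median member was at 1.67%, and 65 members had no modified call. The share of other genes with no modified call is not given here, and it depends on the number of calls per gene. Single cytosines were tested with an exact binomial test against the false positive rate of CAPS, with Benjamini-Hochberg adjustment over every tested cytosine of the genome. Of 17303 tested cytosines in Olfr coding exons 105 passed (0.607%), where 1.64% passed in the genome and 1.51% in other genes of equal density, a ratio of 0.402 (0.329 to 0.490). Upstream 37 of 7674 passed (0.482%) and between neighbours 990 of 144259 (0.686%).

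Among members with 100 or more CAPS calls and no modified PS call, Olfr339 was the highest, with 15 of 162 CAPS calls modified (9.26%, 5.28 to 14.8) and 0 of 124 PS calls. Olfr1497 was at 9.19% and Olfr986 at 8.57%, also with no modified PS call, and Olfr718-ps1, with 2 of 641 PS calls modified, was at 8.38%. Olfr279 had the most cytosines that passed (6), followed by Olfr225 with 5, and their CAPS levels were 7.83% and 7.59%. The TAPSβ levels of Olfr279 and Olfr225 were 20.8% and 69.4%, so high CAPS was seen at both low and high 5mC. In the 90 bases of Olfr339 and of Olfr986 with the most modified CAPS calls, CpGs are in capitals.
Olfr339 (chr2:36277368-36277457, plus strand): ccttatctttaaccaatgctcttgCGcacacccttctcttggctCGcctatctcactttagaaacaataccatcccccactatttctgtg
Olfr986 (chr9:39995368-39995457, plus strand): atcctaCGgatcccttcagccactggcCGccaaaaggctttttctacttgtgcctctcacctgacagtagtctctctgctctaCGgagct

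The CpG at base 45 of the Olfr339 line read 5 of 26 CAPS calls, 11 of 31 TAPSβ calls and 0 of 16 PS calls as modified, while its neighbour at base 25 read 0 of 24 in CAPS and 23 of 32 in TAPSβ. All 3 CpGs of the Olfr986 line carried CAPS calls, with 3 of 18, 4 of 22 and 3 of 22. None of their PS calls, 24, 27 and 25 in number, was modified.

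Among members with 100 or more calls, Olfr177 was the highest both in CAPS, at 12.3% (24 of 195), and in PS, at 13.6% (23 of 169). It held 2 cytosines that read 20% or more in PS, so its CAPS level is not taken as 5hmC here. Its 60 bases with the most PS calls hold 1 CpG, in capitals, with 11 of 42 CAPS calls and 12 of 42 PS calls modified.
Olfr177 (chr16:58872084-58872143, minus strand): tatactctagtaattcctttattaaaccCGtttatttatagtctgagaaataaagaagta

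Such cytosines were few. In total 15 members held one, among them Olfr209, Olfr628, Olfr624 and Olfr418-ps1, which had the next highest PS levels among members with 100 or more PS calls (6.32%, 4.10%, 3.05% and 2.20%) and CAPS levels of 5.18%, 6.90%, 3.15% and 7.46%. A difference between the genome of the E14 line and the reference would give the same reading and was not tested. Some of these genes also had many reads. TAPSβ reads per coding CpG cytosine were 41.9 in Olfr209, 26.4 in Olfr177 and 22.6 in Olfr418-ps1, against 13.0 in the family. In Olfr628 and Olfr624 they were 14.5 and 9.65. The cause of the higher coverage was not tested. The authors left known variants of the line out of their own later analysis, and whether the deposited counts were filtered in that way is not given in the sources used here. Of 17454 cytosines tested in PS in Olfr coding exons, 11 passed (0.0630%), against 0.0791% in the genome and 0.0434% in other genes of the same density strata, unweighted. Between neighbours 244 of 144293 passed (0.169%), but the genome share is not matched on CpG density and depends on high-PS cytosines. Without those cytosines the genome share was 0.00609%. They made up 0.201% of the cytosines between Olfr neighbours and 0.249% in control gaps of equal density. The share that passed in those control gaps is not given here, so no excess between neighbours is read from these values. Of 721 members with 100 or more PS calls, 517 had no modified call, and the share of other genes with none is not given here.

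In most clusters the coding exons had higher 5mC and lower 5hmC than other genes. In the 36 clusters of 10 or more genes, the coding-exon TAPSβ level ran from 27.0% to 77.3% with a median of 70.5%, and it was above other genes of equal density in 31. The CAPS level ran from 0.574% to 4.16% with a median of 1.97%, and it was below the control in 31, with the whole interval of the ratio below 1 in 23. In the upstream windows CAPS was below the control in 36 of 36 clusters, and in the DNA between neighbours also in 36 of 36, with the interval below 1 in 34. TAPSβ was less uniform outside the coding exons. It was above the control upstream in 26 clusters and below it in 10, with the whole interval below 1 in 4, and between neighbours again above in 26 and below in 10, with the interval below 1 in 7.

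**Figure D3:**
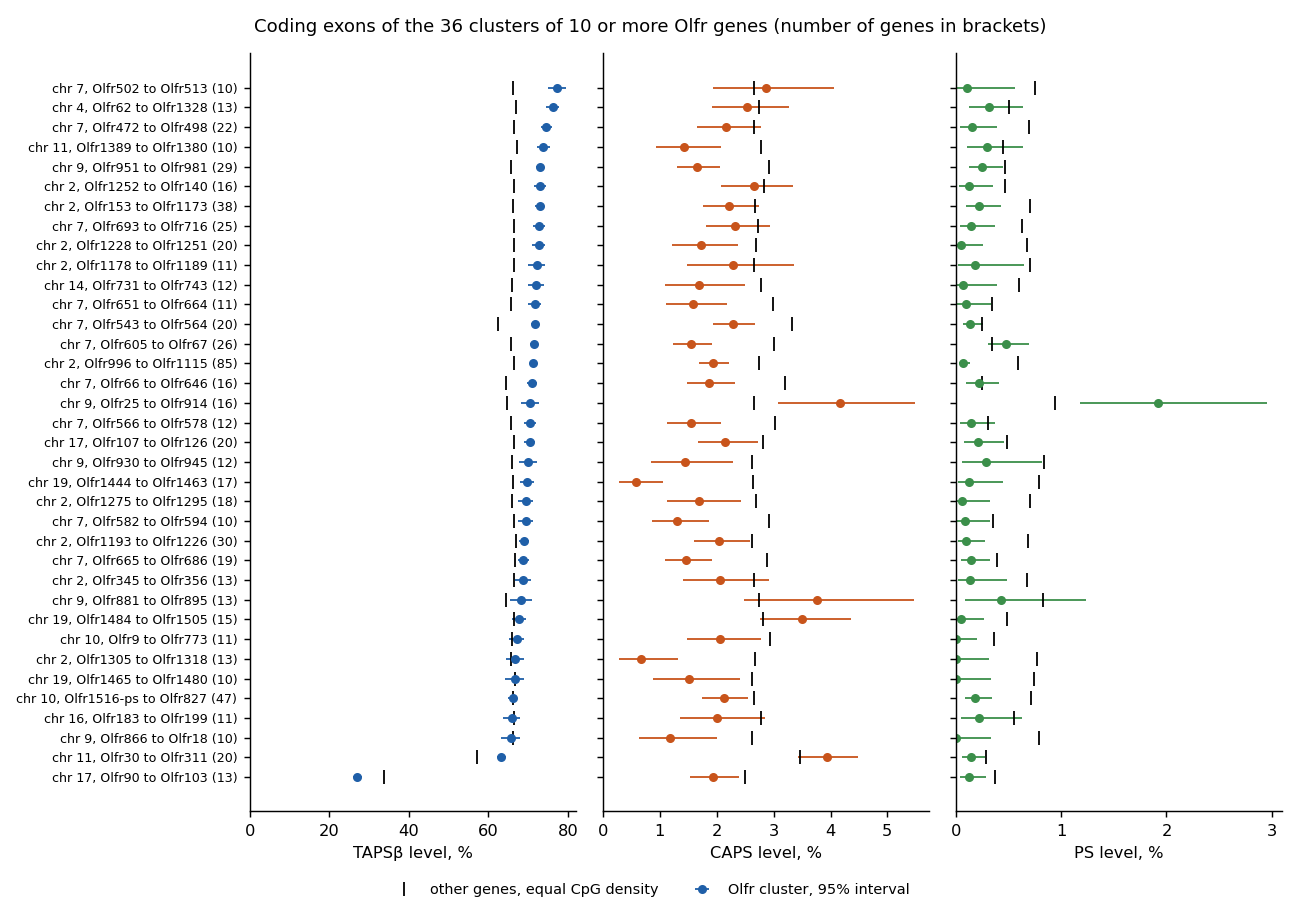
Coding-exon TAPSβ, CAPS and PS levels in percent for the 36 clusters of 10 or more Olfr genes, ordered by TAPSβ, with 95% intervals; black ticks mark other genes of equal CpG density. TAPSβ is above the tick in 31 clusters and CAPS below it in 31, and the bottom cluster, Olfr90 to Olfr103 on chromosome 17, is at 27.0% in TAPSβ.

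The cluster from Olfr90 to Olfr103 at chr17:37222136-37476623 had the lowest TAPSβ level, 27.0% (25.9 to 28.1), and Olfr94 and Olfr95 held 172 and 84 of its 398 coding CpG cytosines. Its median gene was at 68.2%, close to the rest of the family. On chromosome 11 the 20 genes from Olfr30 to Olfr311 were at 63.2% in TAPSβ and 3.93% in CAPS (3.43 to 4.49), and the control of 3.47% lay within that interval. The highest CAPS level, 4.16% for Olfr25 to Olfr914 on chromosome 9, came with a PS level of 1.92% in the same 16 genes. One of them, Olfr911-ps1, named here after its values were seen, had 21 of 65 CAPS calls and 20 of 77 PS calls modified, so this level is not taken as 5hmC. At the other end were Olfr1444 to Olfr1463 on chromosome 19, at 0.574% in CAPS, and Olfr1305 to Olfr1318 on chromosome 2, at 0.671%, with TAPSβ levels of 69.7% and 66.7%. The intervals of both CAPS values (0.275 to 1.05 and 0.290 to 1.32) hold the false positive rate used for CAPS, a fraction of 0.0072, so they cannot be told from no 5hmC. Among chromosomes, the 286 members of chromosome 2 were at 71.0% in TAPSβ and 1.97% in CAPS, and the 240 of chromosome 7 at 71.4% and 1.89%. The 49 of chromosome 17 were at 49.9% and 2.03%, and without Olfr94 and Olfr95 the other 47 were at 70.5% (69.5 to 71.4) in TAPSβ. Chromosomes 16 and 8, with 36 and 5 members, were at 62.2% and 60.3%, below other genes of equal density by ratios of 0.940 (0.923 to 0.956) and 0.936 (0.903 to 0.971). Without Olfr15 chromosome 16 was at 65.2% (ratio 0.979, 0.963 to 0.996), and without Olfr177 and Olfr209 as well, which hold high-PS cytosines, at 66.6% (ratio 1.00, 0.983 to 1.02). Chromosome 10, with 68 members, had a TAPSβ ratio of 0.997 (0.984 to 1.01). Chromosome 13, with 14 members, had a TAPSβ ratio of 1.02 (0.993 to 1.04).

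The DNA between neighbouring members had less 5hmC, while 5mC was higher in pooled reads but not in every gap or cluster. The 936 gaps were at 66.4% in TAPSβ, 3.31 points (3.23 to 3.39) above gaps between other genes of equal density, and at 1.93% in CAPS against 2.83%, a ratio of 0.682 (0.674 to 0.691). Their PS level was 0.327% against 0.413%, but 475 of 927 gaps were above the control median of their stratum and 429 below it. Of 928 gaps with enough CAPS reads, 714 were below the control median of their stratum and 214 above it. In TAPSβ 542 of 930 gaps were above that median and 388 below, with a median difference of 1.39 points. Reads per cytosine in the gaps were 0.918, 0.958 and 0.945 times the control in TAPSβ, CAPS and PS. Gaps of less than 20 kb differed from controls by 1.90 points in TAPSβ, and by a ratio of 0.670 in CAPS.

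CAPS fell towards the edges of the clusters, and the fall began outside them. Across the edges of the 36 large clusters, CpGs with no other CpG within 100 bp were compared by distance, with all DNA of any Olfr cluster left out of the outer bins. Their CAPS level was 2.83% (2.76 to 2.90) at 200 to 500 kb outside, 2.76% at 100 to 200 kb, 2.27% (2.12 to 2.42) at 50 to 100 kb and 1.83% at 25 to 50 kb. It was 1.64% (1.53 to 1.75) in the last 25 kb outside, 1.67% in the first 25 kb inside and no more than 1.72% further in. TAPSβ over the same CpGs stayed between 61.8% and 66.6%, and PS between 0.183% and 0.252%. Over all CpGs, which are not matched on density, TAPSβ was 52.6%, 51.6% and 60.7% at 200 to 500, 50 to 100 and 25 to 50 kb outside, 65.7% in the last 25 kb outside and 66.8% in the first 25 kb inside, and CAPS fell from 3.27% to 1.87% between the first and the last of these places. Cluster by cluster, CAPS was lower inside than at 50 to 500 kb outside in 33 of 36 clusters, with a median difference of -0.88 points, while TAPSβ was higher inside in 18 and lower in 18.

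**Figure D4:**
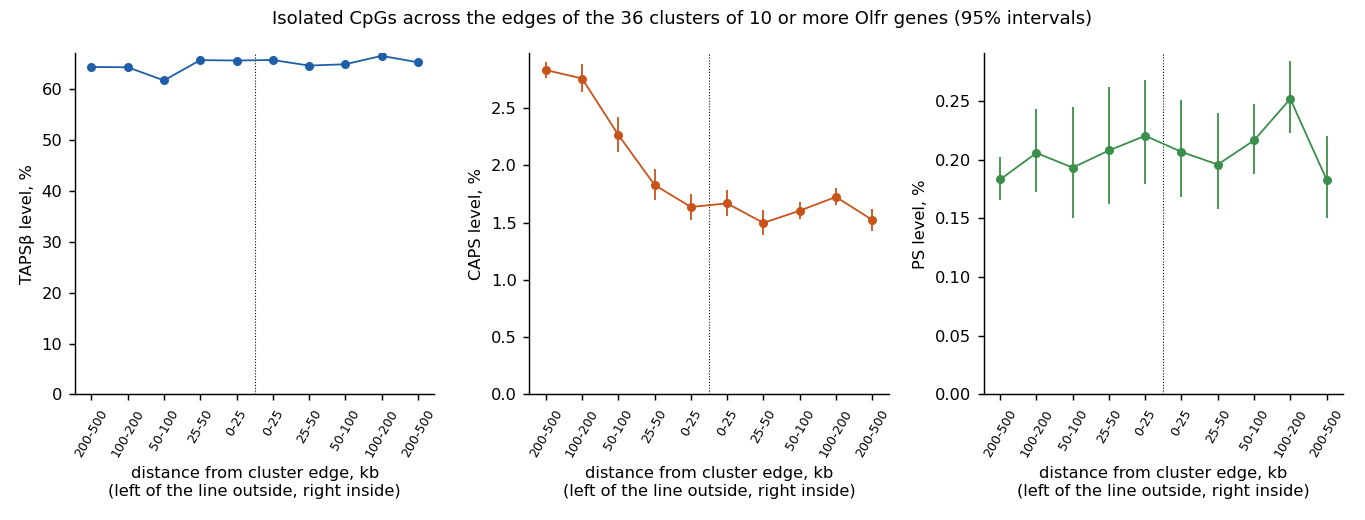
TAPSβ (left), CAPS (middle) and PS (right) levels in percent at CpGs with no other CpG within 100 bp, by distance in kb from the edge of the 36 clusters of 10 or more Olfr genes, outside to the left of the dotted line and inside to the right, with 95% intervals. CAPS falls from 2.83% to 1.64% on the way to the edge and is near that level inside, while TAPSβ stays between 61.8% and 66.6%.

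The lower CAPS level of the coding exons was less marked in single members. The coding exons of the 43 single genes had a CAPS interval of 2.95% to 3.67%, with a ratio to other genes of equal density of 1.04 (0.933 to 1.16), whereas the 1063 clustered genes were at 2.11% (2.04 to 2.18) with a ratio of 0.719 (0.695 to 0.744). Of the 323 modified calls of the single genes, Olfr718-ps1 supplied 49 and Olfr418-ps1, which holds 2 high-PS cytosines, 27. Without these 2 genes, named for their values, the single genes were at 2.79% (2.46 to 3.16) with a ratio of 0.890 (0.786 to 1.01). The intervals cover counting error and not the spread between genes, so they do not test single against clustered genes. Clusters of 2 to 4, 5 to 9, 10 to 19 and 20 or more genes had ratios of 0.731, 0.696, 0.687 and 0.754. In the upstream kilobase, however, single genes were at 1.93% (ratio 0.567, 0.457 to 0.704) and clustered genes at 1.86% (0.578). The first and last genes of the large clusters were at 2.09% in CAPS and the inner genes at 2.07%, with overlapping intervals.

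Other receptor families of the nose gave a mixed picture. The 203 Vmn1r genes, vomeronasal receptors, were at 64.0% in TAPSβ and 2.15% in CAPS, with ratios to controls of equal density of 0.972 and 0.781 (0.699 to 0.873), and the 124 Vmn2r genes at 63.7% and 2.47%, with ratios of 0.961 and 0.945. Cytosines at 20% or more in PS made up 0.748% of the Vmn1r and 1.09% of the Vmn2r coding cytosines, against 0.103% for Olfr, and the PS levels were 0.684% and 1.09%, so the CAPS levels of these families are not taken as 5hmC alone. The 15 Taar genes, receptors for trace amines, were at 74.0% and 2.92%, with ratios of 1.23 and 0.870 (0.732 to 1.03). Thus the interval of the CAPS ratio of the Olfr genes, 0.738 (0.714 to 0.763), overlapped those of the Vmn1r and the Taar genes. The Olfr TAPSβ ratio of 1.07 lay between the vomeronasal and Taar families. The 19 other protein-coding genes inside Olfr clusters, such as Trim21, Tlr11 and H2-M3, were at 55.7% and 3.08%, with a CAPS ratio of 0.916 (0.794 to 1.06). One of them, Gm5900, named after its values were seen, was at 8.49% in CAPS and 6.61% in PS, and without it the group was at 2.82% in CAPS with a ratio of 0.842 (0.723 to 0.981).

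**Figure D5:**
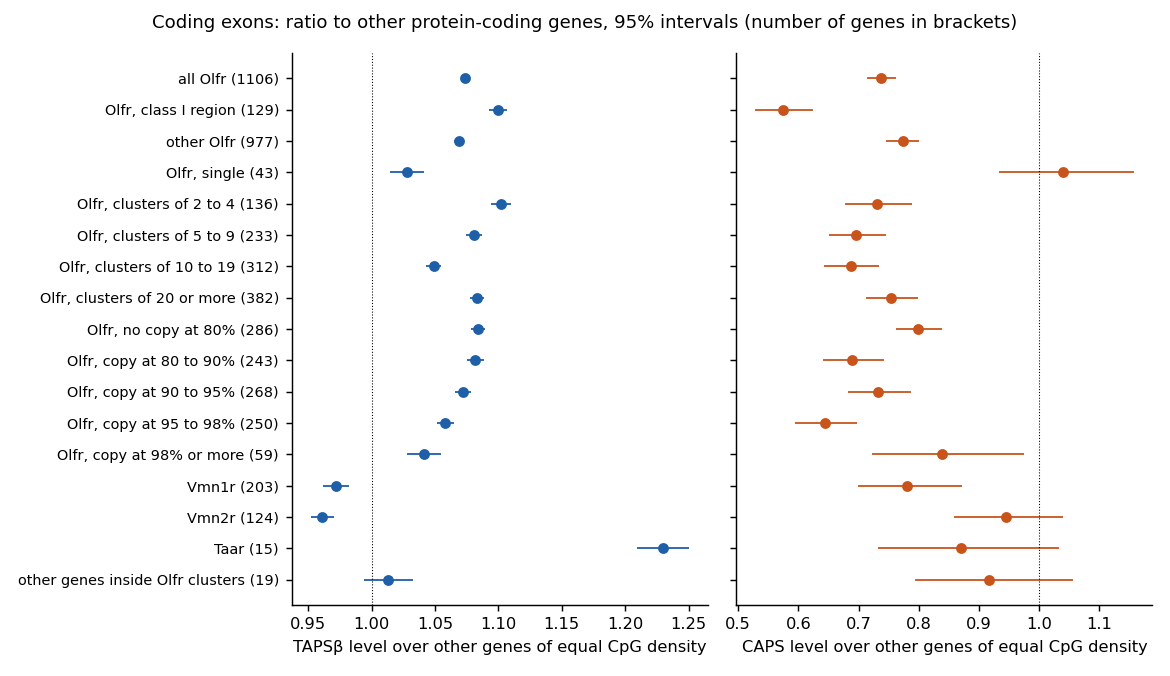
Ratio of the coding-exon TAPSβ level (left) and CAPS level (right) to that of other protein-coding genes of equal CpG density, with 95% intervals and gene numbers in brackets, for Olfr genes by region, cluster size and identity of their closest copy, and for other families. Single Olfr genes are at 1.04 in CAPS (0.890 without Olfr718-ps1 and Olfr418-ps1), clustered Olfr genes between 0.687 and 0.754, and the class I region at 0.574.

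Because the family is full of near copies, the loss of reads to ambiguous mapping was examined. A second stretch of 250 bp or more with 95% identity or more was found elsewhere in the genome for 309 members, and for 59 of them the identity was 98% or more. Those 59 had 11.5, 7.82 and 8.12 reads per coding CpG cytosine in TAPSβ, CAPS and PS, and 93.9% of their cytosines were listed in TAPSβ, against 98.9% for the family. In other genes weighted to the density of the family, 91.5% were listed. Olfr1506 and Olfr247, each with an identical copy of 927 and 960 bp, had no read in any library. The TAPSβ level of the 59 was 69.1% and their CAPS level 2.37%. The 286 members with no copy at 80% were at 65.2% and 2.49%, but had more CpG, at 1.25 against 0.832 per 100 bp. Relative to other genes of equal density, the order of these groups was the other way. The TAPSβ ratio was 1.04 (1.03 to 1.05) for the 59 and 1.08 (1.08 to 1.09) for the 286. The CAPS ratio was 0.839 (0.722 to 0.975) for the 59 and 0.799 (0.761 to 0.839) for the 286, with overlapping intervals. Members with a best copy at 80 to 90%, 90 to 95% and 95 to 98% had lower CAPS ratios, of 0.690, 0.733 and 0.643. The CAPS ratio thus had no order by copy identity. Olfr1359 and Olfr1360 were 99.7% identical over 939 bp on chromosome 13, and their coverage in TAPSβ was 8.58 and 4.16 reads per cytosine.

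Genes of the olfactory signalling cascade and of receptor choice were listed without a match on CpG density. The 21 genes listed included Adcy3 (adenylyl cyclase), Cnga4 and Cngb1 (channel subunits), Omp (the olfactory marker protein), Rtp1 and Rtp2 (which carry receptors to the surface) and the regulators Lhx2, Ldb1 and Ebf1. Their coding-exon TAPSβ levels ran from 12.1% to 70.7% with a median of 46.7%, and their CAPS levels from 0 to 8.30% with a median of 4.18%. The CAPS level of 0 was that of Gng13, which had only 44 CAPS calls. In the upstream kilobase the median TAPSβ level was 15.9%, and 10 of 20 genes with reads were under 20%. The share of all genes under 20% upstream is not given here, so this count has no background to be read against. The median of all autosomal protein-coding genes with 100 or more calls was 54.5% in TAPSβ and 3.16% in CAPS over coding exons, and the read-pooled upstream level of other genes without matching was 11.5% in TAPSβ. Lhx2, a transcription factor needed for receptor choice, was at 3.28% upstream, and Ldb1, its partner, at 0.482%. Adcy3 was at 24.1% upstream, Omp at 59.8%, Rtp1 at 69.5% and Rtp2 at 59.7%. The upstream kilobase leaves out the start itself. Within 500 bp of the start the median TAPSβ level of the 20 genes with reads was 2.88%. Adcy3 was at 3.25% there, Omp at 31.0%, Rtp1 at 71.0% and Rtp2 at 61.5%.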

How the data were processed

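The authors trimmed reads with Trim Galore 0.3.1, aligned them to mm9 with BWA 0.7.12, removed duplicates with Picard 2.3.0 and called CpGs with asTair, leaving out reads of low mapping quality. Their later analysis left out sites at variants known for the E14 line and in regions that map poorly, and whether the deposited files were so filtered is not given in the sources used here. The deposited files give, per CpG cytosine and strand, modified and unmodified read counts and their fraction, which matched the counts within 0.0005. Here the counts were pooled over coding exons, the 1 kb upstream of the annotated start and the DNA between neighbours under 50 kb apart. Other autosomal protein-coding genes were weighted to equal CpG density in strata of 0.25 CpG per 100 bp. Levels were not corrected for conversion or false positive rates. Pooled levels have exact (Clopper-Pearson) 95% intervals, and differences and ratios have normal-approximation intervals. Reads of a molecule share cytosines, so intervals cover counting error only. Cytosines with 5 or more reads were tested one-sided by an exact binomial test against 0.0072 (CAPS) or 0.0027 (PS), with Benjamini-Hochberg adjusted p under 0.05. Genes are not replicates, and no test was made between groups of genes. Copies were found with BLAST+ 2.17.0 (250 bp or more, 80% identity or more). Scripts ran in Python 3.11.15 with SciPy 1.17.1 and were tested on simulated data. Genes were named as the 5 highest or lowest by each measure, plus listed receptors. Members and lists were chosen with earlier results of these data known. Sequences are from the NCBIM37 reference.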

Additional observations from a re-analysis of the deposited data

How the results depend on the processing

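Of 78 alternatives, 38 left their value within its counting interval, 40 moved it beyond and 0 reversed it. The 4 alternatives for the share of cytosines that passed in CAPS had no null value and could not count as reversed. A ratio whose interval came to hold 1 counted as moved, as the PS ratio did at 0.931 (0.839 to 1.03) matched on nearby CpGs. The cause of these shifts was not tested. For coding exons, the TAPSβ difference (4.69 points) was 4.01 against controls with 1 coding exon, 3.84 as a median over members, 5.03 without members with a copy of 95% identity, and 4.45 matched on nearby CpGs and flanking bases. The CAPS ratio (0.738) was 0.789 against controls with 1 coding exon, 0.803 at equal TAPSβ level, 0.769 with cytosines averaged, 0.626 matched on nearby CpGs, 0.631 with flanking bases also matched, 0.779 without cytosines of 20% or more in PS, and 0.692 without members of 2.5 CpG per 100 bp or more. The PS ratio (0.442) was 0.497, 0.502, 0.931, 0.928 and 0.698 under 1 coding exon, averaging, nearby CpGs, flanking bases and removal of high-PS cytosines, and 0.541 within chromosomes. Upstream, the TAPSβ difference (5.56) was 9.81 for 500 bp, 6.33 with strata of 0.5 and 6.63 within chromosomes, and the CAPS ratio (0.578) was 0.517 for 500 bp and 0.632 without high-PS cytosines. Between neighbours, the TAPSβ difference (3.31) was 3.18 with genes left in, 3.20 with cytosines averaged, 1.90 for neighbours under 20 kb apart and 3.94 with strata of 0.5. The CAPS ratio there (0.682) was 0.691, 0.692, 0.670 and 0.654 under the same settings, 0.716 at equal TAPSβ level, 0.693 without cytosines above 4 times the median coverage and 0.693 without high-PS cytosines. Coverage ratios against controls with 1 coding exon were 1.18, 1.19 and 1.16 in TAPSβ, CAPS and PS, and without close copies 1.05 in both CAPS and PS. The share of cytosines that passed in CAPS (0.607%) was 2.79% with adjustment over cytosines with a modified read only (genome 5.51%) and 0.451% at a rate of 0.01 (genome 1.31%). Equal TAPSβ level, removal of dense members, the median over members and flanking bases were chosen after seeing the data. No paired analysis was possible because each method had 1 library.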

Other observations

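The depth of single genes limits what can be said of them. A member with no modified CAPS call in 100 calls still allows a level of several percent, and 65 of 772 members were of this kind. With 1 library per method, differences between cultures could not be measured, and the PS level of the family, 0.202% in coding exons, lies under the false positive rate of 0.0027 used for PS. Of 36 large clusters, 3 had more CAPS inside than at 50 to 500 kb outside, and the difference ranged from -3.06 to 0.52 points.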
